A study of Huso dauricus x Acipenser schrenckii with 16 samples.

Results

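Complement C1q is a secreted protein built of A, B and C chains, each with a collagen-like stalk and a globular head. It binds antibody on a target, and also dying cells, and with the proteases C1r and C1s it starts the classical pathway of complement. In mammals its chains are made mainly by tissue macrophages and dendritic cells rather than by the liver, and in many genomes the 3 genes lie side by side.

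Of 41685 rows in a table of ovary RNA, 4 rows annotated as C1q subunits are described here. They are LOC131708117 (subunit A), LOC131708104 (subunit B) and LOC131708114 and LOC117397236 (both subunit C). They were chosen by the difference of their measured level between high and low yield in an earlier reading of the same table, so their difference between the groups is given as a description, with no test. The table holds 7 rows annotated as C1q subunits, and the other 3 were left out by that choice.

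The fish were farmed hybrid sturgeons, whose mother was Huso dauricus and whose father was Acipenser schrenckii, kept under normal breeding conditions. High-yield samples came from a population ranked high for caviar yield and low-yield samples from another population at the same site ranked low, with 8 adult females labelled in each group, so yield cannot be told apart from population. Poly(A) RNA of whole ovary pieces was sequenced, with 37362125 to 60873931 counts per library. Libraries 1 and 5 of high yield were near identical, as were 2 with 6, 3 with 7 and 4 with 8, with Spearman's rho of 0.989 to 0.995 within a pair and at most 0.970 between any other libraries. Each such pair was counted as 1 sample, which leaves 4 high-yield and 8 low-yield samples. Low-yield 2 and 5 stood apart from the other 10 samples in the C1q rows, and results that rest on them are given with and without them.

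The C1q rows lie in 2 places of the genome assembly behind the table. In the first locus, the genes for B (LOC131708104), C (LOC131708114) and A (LOC131708117) follow each other on the minus strand within 10015 bases, with gaps of 1022 and 1227 bases. In the second locus, on another sequence, the order is the same: B (LOC117966684), C (LOC117397236) and A (LOC117966555), followed by a further row annotated as A (LOC117397119), within 17231 bases. The members are therefore the whole first locus and the C gene of the second.

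**Figure D1:**
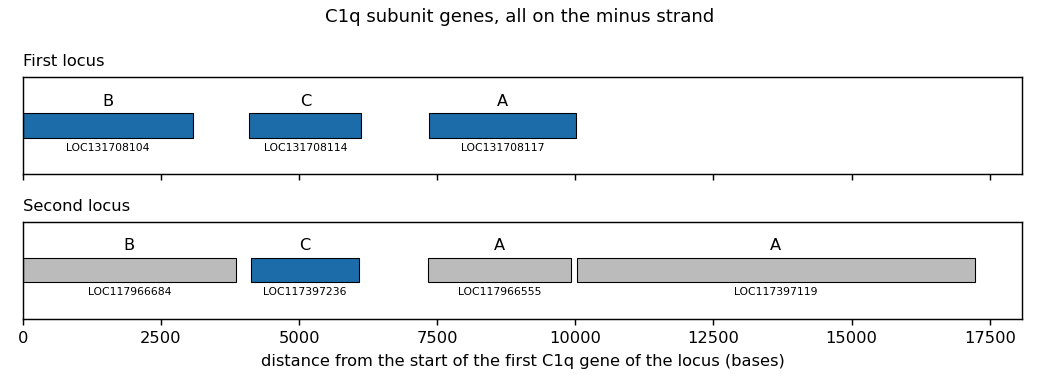
Map of the rows annotated as C1q subunits at both loci, by distance in bases from the start of the first C1q gene of each. Blue boxes are the 4 rows chosen and grey boxes the other 3, and both loci hold the genes in the order B, C, A.

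The surroundings of the loci match. Within 150 kb, 28 of 29 further rows near the first locus had a row of the same description near the second, and 27 of 28 the other way. How alike the copies of a subunit are in sequence was not measured. Where copies are near identical, counts can be split between them by the authors' counting. The level of a single copy is then less certain than the summed level of a subunit. The program, the genome build and the use of strand were not given in the sources used here.

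All 4 rows were low in high-yield ovaries and in most low-yield ovaries, and high in 2 low-yield ovaries. Levels are CPM, counts scaled to library depth with TMM (trimmed mean of M values), and compare samples for 1 row, not rows with each other. In bulk tissue, fewer cells of a type and less RNA per cell cannot be told apart.

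Subunit A (LOC131708117), the chain encoded at one end of the first locus, had 0.510, 0.157, 0.603 and 0.354 CPM in the high-yield pairs 1+5, 2+6, 3+7 and 4+8. It had 7.85 CPM in low-yield 2 and 8.63 CPM in low-yield 5, while the other 6 low-yield samples ran from 0.0834 to 1.75 CPM with a median of 0.546 CPM. Those 6 thus spanned all the high-yield samples, and the 2 highest low-yield samples stood above every other value. The means were 0.406 ± 0.195 CPM in high yield (SD, n = 4), against 2.56 ± 3.55 CPM in low yield (SD, n = 8).

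Subunit B (LOC131708104), at the other end of that locus, had 0.364, 0.156, 0.683 and 0.256 CPM in the high-yield pairs. It had 12.2 CPM in low-yield 2 and 7.04 CPM in low-yield 5, against 0.164 to 2.84 CPM with a median of 0.362 CPM in the remaining low-yield samples. B was the row in which low-yield 2 exceeded low-yield 5 the most, by 1.73-fold. The means were 0.365 ± 0.228 CPM in high yield (SD, n = 4), against 2.999 ± 4.39 CPM in low yield (SD, n = 8).

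The subunit C row of the first locus (LOC131708114) had 1.28, 0.871, 0.850 and 0.492 CPM in the high-yield pairs. It had 11.99 CPM in low-yield 2 and 21.4 CPM in low-yield 5, against 0.349 to 2.57 CPM with a median of 0.783 CPM in the remaining low-yield samples. Here low-yield 5 was the higher of both, the reverse of B. The means were 0.873 ± 0.322 CPM in high yield (SD, n = 4), against 4.96 ± 7.68 CPM in low yield (SD, n = 8).

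The subunit C row of the second locus (LOC117397236) had 0.283, 0.266, 0.360 and 0.189 CPM in the high-yield pairs. It had 8.11 CPM in low-yield 2 and 7.17 CPM in low-yield 5, against 0.0794 to 1.18 CPM with a median of 0.380 CPM in the remaining low-yield samples. It was the row with the least overlap, since 6 of 8 low-yield samples lay above all 4 high-yield samples and 1 lay below them. For the other 3 rows, 4 of 8 low-yield samples lay above all 4 high-yield samples. Of all rows with a mean of at least 1 CPM, 0.296% had all high-yield samples below all low-yield samples, and none of the 4 C1q rows did.

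**Figure D2:**
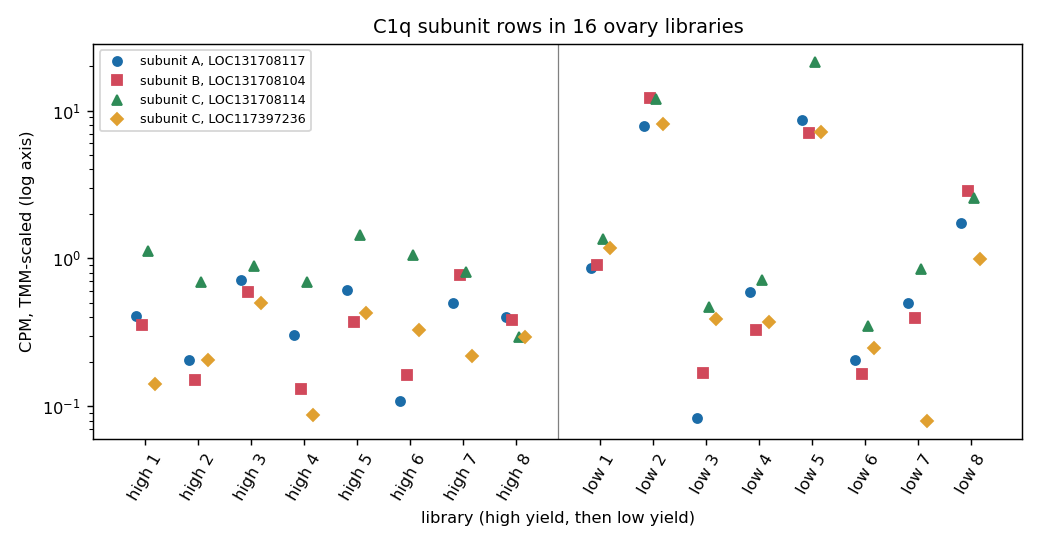
TMM-scaled CPM on a log axis for the 4 C1q rows in each library, with the 8 high-yield libraries on the left and the 8 low-yield libraries on the right. Low-yield 2 and 5 sit between 7.04 and 21.4 CPM, and the highest value of any other library is 2.84 CPM, in low-yield 8.

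The summed level of the 4 rows was 2.44, 1.45, 2.50 and 1.29 CPM in the high-yield pairs. In low yield it was 40.1 CPM in sample 2, 44.2 CPM in sample 5, 8.16 CPM in sample 8 and 4.30 CPM in sample 1, and the other 4 ran from 0.964 to 2.01 CPM. Low-yield 3 and 6, the lowest of all 12, lay below every high-yield sample. These sums rest on 117 to 282 counts in a high-yield pair, on 2626 and 1695 counts in low-yield 2 and 5, and on 40 to 327 counts in the remaining low-yield samples. Sample 5 of low yield thus had a higher sum than sample 2 in CPM but a lower one in counts. The order of these samples by CPM rests on the TMM scaling.

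The order of the samples was nearly shared at the top. Low-yield 2 and 5 took ranks 1 and 2 of 12 in all 4 rows, and low-yield 8 and 1 took ranks 3 and 4 in every row, with 8 before 1 except in LOC117397236. Below them the order differed by row, and low-yield 3 ranked 12 for A and 5 for LOC117397236. The 2 libraries of a near-identical high-yield pair differed by 1.05-fold to 3.37-fold in a C1q row, so neighbours in the lower ranks were not separated beyond that spread.

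In edgeR's quasi-likelihood fit over 30009 rows, the log2 fold change of high over low yield was -2.62 (SE 1.17) for A, -2.97 (SE 1.26) for B, -2.45 (SE 1.13) for LOC131708114 and -3.05 (SE 1.20) for LOC117397236. Without low-yield 2 and 5 these were -0.71 (SE 0.80), -1.10 (SE 0.90), -0.24 (SE 0.62) and -0.99 (SE 0.75). Those 2 samples held 80.0% to 84.1% of the summed low-yield CPM of each row. Over all rows, the fit called 0.0% at an adjusted p under 0.05 and 8.52% at an unadjusted p under 0.05, with 3.35% lower and 5.18% higher in high yield. At an adjusted p under 0.05, DESeq2 on the same samples called 0.302%, and edgeR on 16 separate libraries called 0.0579%. Since that contrast chose the C1q rows, nothing is read from their place in it.

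The C1q rows outside the choice come from the same samples and may share reads with the chosen copies. Subunit B of the second locus (LOC117966684) had 0.687, 0.532, 0.879 and 0.419 CPM in the high-yield pairs. It had 6.42 CPM in low-yield 2 and 16.4 CPM in low-yield 5, against 0 to 1.62 CPM in the remaining low-yield samples, with 0 counts in samples 3 and 6. Its log2 fold change was -2.32 (SE 1.56; edgeR adjusted p = 0.655), and without low-yield 2 and 5 it turned to 0.42. Both rows of subunit B were thus high in the same 2 ovaries. Over the other 10 samples their log2 fold changes were -1.10 (SE 0.90) for LOC131708104 and 0.42 (SE 1.14) for LOC117966684, and these SEs settle neither sign. The choice by this contrast took the first row and left out the second, which favours such a difference. The difference was not tested.

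Subunit A of the second locus (LOC117966555) had 0.235, 0.185, 0.277 and 0.0786 CPM in the high-yield pairs. It had 2.69 CPM in low-yield 2 and 5.32 CPM in low-yield 5, against 0 to 0.574 CPM in the remaining low-yield samples. Its log2 fold change was -2.49 (SE 1.502; edgeR adjusted p = 0.632) and -0.067 without low-yield 2 and 5. The further A row (LOC117397119) had 3 counts in all, each in low-yield 1, and is not described further.

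The 2 loci followed each other over samples. The first locus summed to 2.15, 1.18, 2.14 and 1.10 CPM in the high-yield pairs, and the second to 1.20, 0.982, 1.52 and 0.687 CPM. In low-yield 2 the loci had 32.0 and 17.2 CPM, in low-yield 5 they had 37.02 and 28.9 CPM, and in low-yield 3, among the lowest samples, 0.723 and 0.389 CPM. The second locus held 40.04% ± 4.06 of all C1q counts in high yield (SD, n = 4) and 35.2% ± 5.36 in low yield (SD, n = 8). The 4 chosen rows, 3 of them at the first locus, enter these shares, so the choice can move the share of the second locus, and the values are given as a description with no test.

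**Figure D3:**
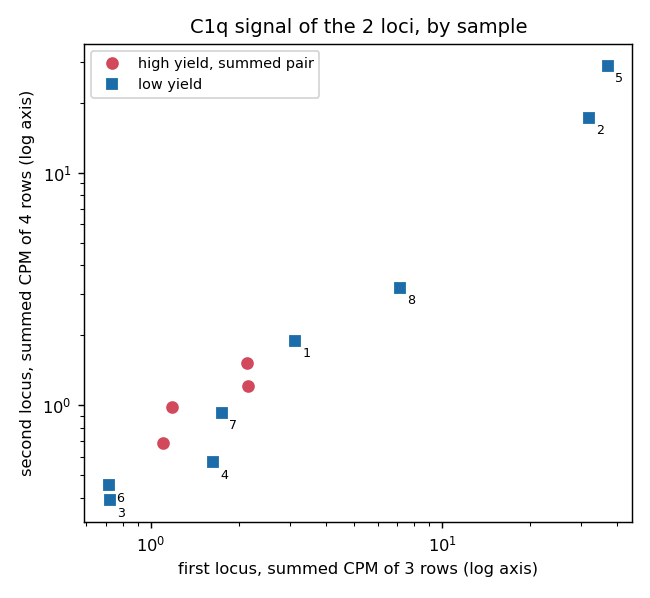
Summed CPM of the C1q rows of the first locus against those of the second, both on log axes, with red circles for the 4 high-yield pairs and numbered blue squares for the 8 low-yield samples. Low-yield 2 and 5 lie at the top right, above 30 CPM on the first locus, low-yield 3 and 6 at the bottom left, and the high-yield pairs between them.

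The balance of copies was less even for a single subunit. For B, the second locus held 64.8% ± 9.57 of the counts in high yield (SD, n = 4) and 33.5% ± 24.9 in low yield (SD, n = 8), where it ran from 0% to 70.0%. For C it held 24.3% ± 4.59 in high yield and 33.6% ± 12.7 in low yield (SD, n = 4 and 8), and for A 34.3% ± 14.9 in high yield and 24.8% ± 17.4 in low yield (SD, n = 4 and 8). The ranges of the groups overlapped for each subunit, and the chosen rows enter each share here too. This comparison was added after the second locus had been seen in the table.

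The mixture of the 4 chosen rows was compared next, which leaves out the A and B copies of the second locus. All 4 rows were chosen by their difference between the same groups, which can keep their shares alike. The tests on shares and ratios therefore cannot show that the mixture was unchanged. Of the summed FPKM of the 4 rows (fragments per kilobase of transcript, scaled for depth), A held 23.7% ± 8.45 in high yield and 25.5% ± 7.00 in low yield (SD, n = 4 and 8; exact permutation p = 0.713, adjusted p = 0.713 over 4 rows). B held 20.8% ± 8.37 in high yield and 26.3% ± 8.09 in low yield (SD, n = 4 and 8; exact permutation p = 0.301, adjusted p = 0.401). LOC131708114 held 54.6% ± 15.6 in high yield and 46.9% ± 9.31 in low yield (SD, n = 4 and 8; exact permutation p = 0.301, adjusted p = 0.401), and LOC117397236 held 0.867% ± 0.200 in high yield and 1.34% ± 0.790 in low yield (SD, n = 4 and 8; exact permutation p = 0.291, adjusted p = 0.401). No share differed between the yield groups beyond the spread between samples.

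The deposited FPKM cannot place these rows against each other. The transcript length implied by counts and FPKM was 2577 bases for LOC117397236, more than the 1954 bases from its start to its end, but 132 to 134 bases for the 3 rows of the first locus, whose genes span 2025 to 3080 bases. Across 31714 mRNA rows with at least 20 counts, the implied length and the span of the gene had Pearson's r of 0.105 on the log10 scale, given as a description across genes. The shares were therefore also taken from counts, where LOC117397236 held 14.5% ± 2.81 in high yield and 19.9% ± 9.50 in low yield (SD, n = 4 and 8; exact permutation p = 0.305, adjusted p = 0.610).

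By counts, A held 20.7% ± 7.12 in high yield and 20.8% ± 6.54 in low yield (SD, n = 4 and 8; exact permutation p = 0.982). B held 18.5% ± 7.62 in high yield and 21.5% ± 7.34 in low yield (SD, n = 4 and 8; exact permutation p = 0.511), and LOC131708114 held 46.3% ± 12.04 in high yield and 37.8% ± 7.10 in low yield (SD, n = 4 and 8; exact permutation p = 0.141, adjusted p = 0.566). In low-yield 2 and 5 the A share was 19.6% and 19.5%, close to the mean of both groups although their C1q level was the highest. Their B share was 30.3% in sample 2 and 15.9% in sample 5. Their LOC131708114 share was 29.9% in sample 2 and 48.3% in sample 5. The balance of the 4 chosen rows thus differed between these 2 ovaries. The B copy of the second locus (LOC117966684), left out of these shares, went the other way from the chosen B row. It had 420 counts in sample 2 and 630 in sample 5. The C copies also shifted against each other. LOC131708114 had 785 counts in sample 2 and 819 in sample 5, while LOC117397236 had 531 and 275. These shifts lie between copies and cannot be read as shifts between whole subunits. The mixture of whole subunits, with all copies summed, was not compared.

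**Figure D4:**
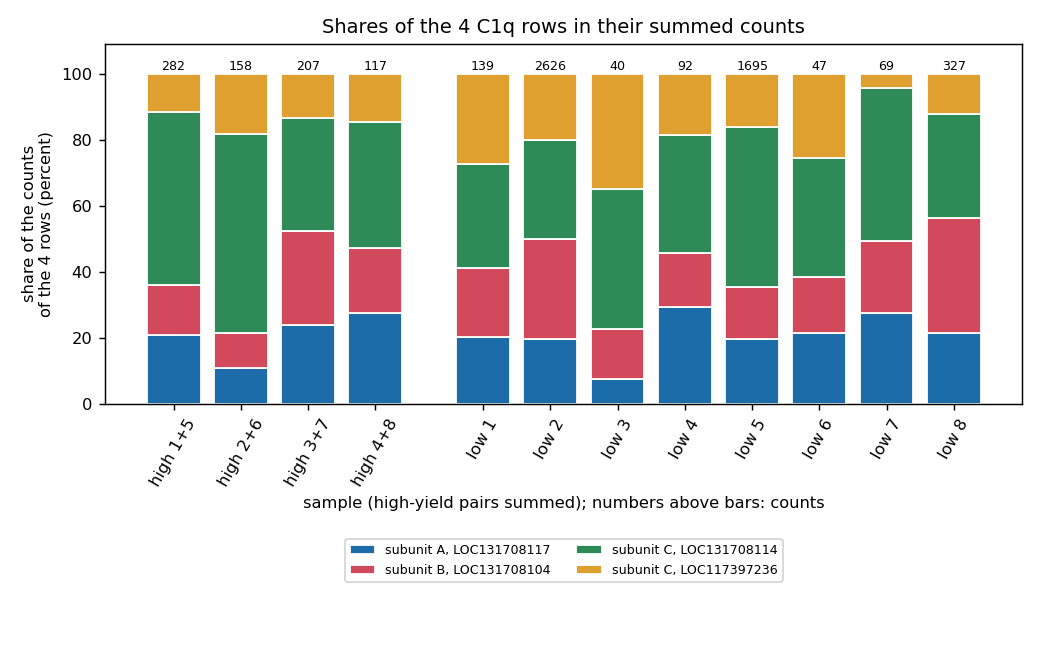
Share of each C1q row in the summed counts of the 4 rows, in percent, for the 4 high-yield pairs on the left and the 8 low-yield samples on the right, with the summed counts above each bar. A (blue) holds 7.5% to 29.4% in every sample, and the bars of low-yield 3, 4, 6 and 7 rest on 40 to 92 counts.

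No ratio between the chosen rows of the subunits passed an adjusted p of 0.05, and the limit from the choice of rows holds for them too. Summed C holds the copies of both loci, while A and B are the copies of the first locus only. The second-locus rows of A (LOC117966555, 509 counts in all) and B (LOC117966684, 1404 counts in all) are left out, so these are not ratios of whole subunits. The log2 ratio of B to A, from FPKM, was -0.19 ± 0.36 in high yield and 0.052 ± 0.67 in low yield (SD, n = 4 and 8; exact permutation p = 0.483, adjusted p = 0.616 over 3 ratios). That of summed C to A was 1.27 ± 0.99 in high yield and 0.96 ± 0.69 in low yield (exact permutation p = 0.616, adjusted p = 0.616), and that of B to summed C was -1.46 ± 0.98 in high yield and -0.90 ± 0.65 in low yield (exact permutation p = 0.261, adjusted p = 0.616). From counts, the log2 ratio of B to A was -0.17 ± 0.37 in high yield and 0.073 ± 0.64 in low yield (SD, n = 4 and 8; exact permutation p = 0.481). That of summed C to A was 1.61 ± 0.89 in high yield and 1.54 ± 0.80 in low yield (exact permutation p = 0.899), and that of B to summed C was -1.79 ± 0.91 in high yield and -1.47 ± 0.68 in low yield (exact permutation p = 0.507). Differences of this size, from either unit, were not detectable with these samples.

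Agreement between the rows was measured over the 10 samples other than low-yield 2 and 5, as the log2 of CPM plus 0.5, for 15 pairs among 6 C1q rows. A and B of the first locus had Pearson's r of 0.942 and Spearman's rho of 0.915 (n = 10; permutation p = 6e-05 and 0.00053, adjusted p = 0.0009 and 0.00795), and r stayed at 0.909 without the 2 samples farthest from the median. The 6 pairs among the chosen rows had r of 0.663 to 0.942, all past an adjusted permutation p of 0.05, but only A with B did so by rank. Without the 2 farthest samples r for these 6 pairs ran from 0.017 to 0.909, so several of them rest on a few samples. The rows were chosen together, which makes their likeness no independent evidence.

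The C row of the second locus was least like its own neighbours. It was chosen together with the rows of the first locus, and the same choice left those neighbours out, which can favour this order. Counts can also be split between copies, so no conclusion is drawn from it. LOC117397236 had r of 0.279 with LOC117966684 and 0.427 with LOC117966555 (n = 10; permutation p = 0.433 and 0.219, adjusted p = 0.433 and 0.234). It had r of 0.743 with B of the first locus (n = 10; permutation p = 0.0219, adjusted p = 0.0329), and 0.017 without the 2 farthest samples. LOC131708114 had r of 0.824 with LOC117966684 (n = 10; permutation p = 0.00365, adjusted p = 0.0137). Without the 2 farthest samples that r was 0.531, and by rank the adjusted permutation p was 0.0621.

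Other macrophage transcripts followed the C1q rows only in part. Of 23 macrophage markers looked for, 20 were matched to a row, and CD74, GRN and TREM2 were not analysed here. None of the 20 was at 0 in every sample. With the row of highest mean FPKM per marker, low-yield 2 and 5 were the 2 highest samples in 9 of 20, while 9.14% of all rows with at least 1 CPM had both above the other 10. The summed level of these 20 rows, most of it GPNMB, was 396 to 666 CPM in high yield, 428 CPM in low-yield 2, 1221 CPM in low-yield 5 and 419 to 717 CPM in the remaining low-yield samples. Of 17 rows tested, 0 passed an adjusted p of 0.05 in edgeR, and at an unadjusted p under 0.05, 1 was lower and 1 higher in high yield. Their median log2 fold change was -0.083, against -0.019 over all rows, and 1.02 without low-yield 2 and 5. Over all 94 tested rows matched to these markers the median was -0.224, and -0.044 without low-yield 2 and 5. The value of 1.02 thus depends on which row was kept per marker.

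CD68 (LOC131721947), the lysosomal glycoprotein macrosialin, had 0.619 ± 0.300 CPM in high yield (SD, n = 4), and 5.88 CPM in low-yield 2, 4.72 CPM in low-yield 5 and 0.175 to 1.82 CPM in the remaining low-yield samples, and a log2 change of -1.55 (SE 0.96; edgeR adjusted p = 0.637). Without low-yield 2 and 5 that change was -0.16. Low-yield 2, 5 and 8 were its 3 highest samples, as in the 3 C1q rows of the first locus. Over the 10 other samples, Pearson's r of CD68 with the mean of the 4 C1q rows was 0.523, given as a description.

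Further markers were high in the same 2 ovaries, and their level in high yield varied from marker to marker. CSF1R (LOC117431496), the receptor for the growth factor on which macrophages depend, had 2.17, 2.65, 1.77 and 1.53 CPM in the high-yield pairs. It had 5.85 CPM in low-yield 2 and 5.84 CPM in low-yield 5, against 0.318 to 1.32 CPM in the remaining low-yield samples. All 4 high-yield samples thus lay above those 6 low-yield samples, whereas C1q in those samples lay on both sides of high yield, and r with C1q over the 10 samples was 0.037.

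The protease CTSS (LOC131703290), which acts in lysosomes of antigen-presenting cells, had 0.579 to 3.04 CPM in high yield, 9.73 CPM in low-yield 2, 11.9 CPM in low-yield 5 and 0.164 to 0.529 CPM in the remaining low-yield samples. CD163 (LOC117399625), a scavenger receptor for haemoglobin, had 0.365 to 3.33 CPM in high yield, 4.598 CPM in low-yield 2, 6.91 CPM in low-yield 5 and 0 to 1.88 CPM in the remaining low-yield samples. VSIG4 (LOC131697850), a complement receptor of resident macrophages, had 0 to 0.297 CPM in high yield, 1.82 CPM in low-yield 2, 0.886 CPM in low-yield 5 and 0 to 0.275 CPM in the remaining low-yield samples. In these 3 rows the 2 high C1q ovaries were again the highest. Over the 10 other samples, r with C1q was -0.277 for CTSS and -0.248 for CD163, given as a description. The row matched to the complement receptor C5AR1 (LOC131735013), which the table also describes as a serotonin receptor, had 0.0887 to 8.18 CPM in high yield, 9.82 CPM in low-yield 2, 16.7 CPM in low-yield 5 and 0.195 to 1.61 CPM in the remaining low-yield samples.

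**Figure D5:**
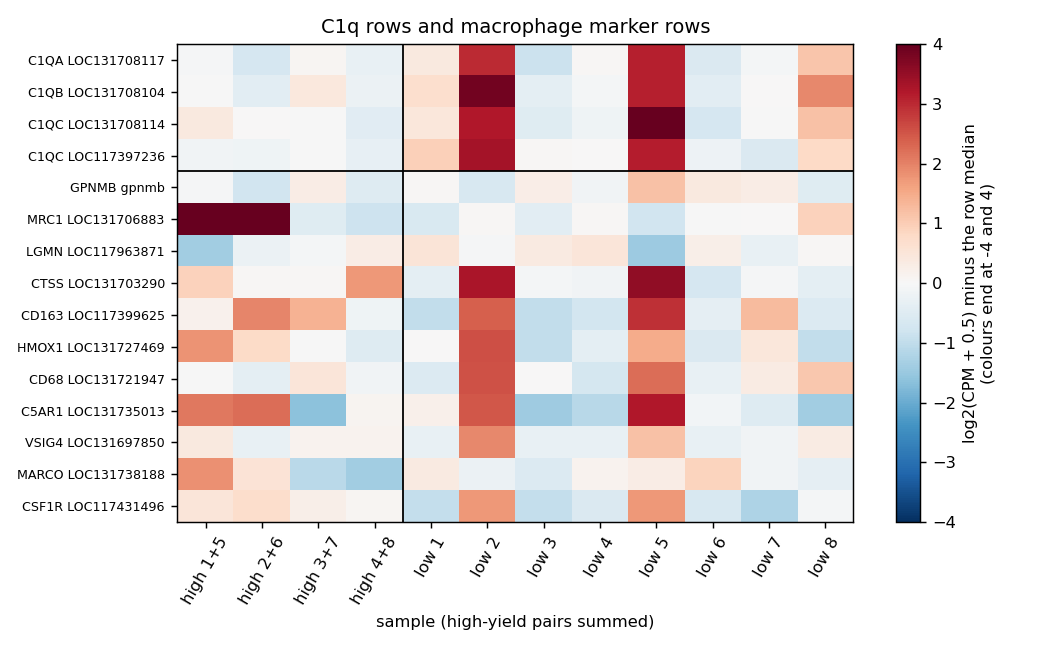
Colour map of log2(CPM + 0.5) minus the row median for the 4 C1q rows (above the line) and 11 macrophage marker rows, with the 4 high-yield pairs left of the vertical line and the 8 low-yield samples right of it. Low-yield 2 and 5 are red in the C1q rows and, among the markers, in CTSS, CD68, CD163 and C5AR1. Both are also above the row median in CSF1R, VSIG4 and HMOX1. MRC1 is high in the high-yield pairs 1+5 and 2+6.

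Other markers did not share the pattern. MRC1 (LOC131706883), the macrophage mannose receptor, had 31.6, 26.6, 0.717 and 0.452 CPM in the high-yield pairs, against 1.25 CPM in low-yield 2, 0.495 CPM in low-yield 5 and 0.618 to 2.72 CPM in the remaining low-yield samples. Its log2 fold change was 3.68 (SE 0.85; edgeR adjusted p = 0.574), it rested on 2 of 4 high-yield samples, and DESeq2 gave an adjusted p of 0.00915. The table holds many rows of this family, and the 20 markers match 210 rows in all. GPNMB (gpnmb), a lysosomal membrane glycoprotein, had 437 ± 141 CPM in high yield (SD, n = 4), and 321 CPM in low-yield 2, 1133 CPM in low-yield 5 and 359 to 652 CPM in the remaining low-yield samples, and a log2 change of -0.38 (SE 0.33; edgeR adjusted p = 0.720), or -0.27 without low-yield 2 and 5. LGMN (LOC117963871), the lysosomal protease legumain, had 36.8 ± 15.2 CPM in high yield (SD, n = 4), and 41.8 CPM in low-yield 2, 15.6 CPM in low-yield 5 and 35.3 to 63.0 CPM in the remaining low-yield samples, and a log2 change of -0.29 (SE 0.35; edgeR adjusted p = 0.789), or -0.48 without low-yield 2 and 5.

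MARCO (LOC131738188), a scavenger receptor, had 1.08 to 14.4 CPM in high-yield ovaries, against 2.36 to 7.20 CPM in low-yield ovaries. HMOX1 (LOC131727469), which breaks down haem, had 0.195 to 2.96 CPM in high yield, 5.35 CPM in low-yield 2, 2.29 CPM in low-yield 5 and 0 to 0.847 CPM in the remaining low-yield samples. In neither did the groups separate. Over the 10 samples other than low-yield 2 and 5, r with C1q was -0.248 for C5AR1, -0.231 for GPNMB and -0.141 for HMOX1. It was -0.040 for MARCO, -0.011 for MRC1 and 0.028 for LGMN, given as a description. The myeloid factor SPI1 (LOC117434554) and the related factor IRF8 (LOC117424121) are named for their role and not by the rule on levels. SPI1 had 0 to 0.307 CPM in high yield. It had 3.498 CPM in low-yield 2, 1.72 CPM in low-yield 5 and 0 to 0.923 CPM in the remaining low-yield samples. Low-yield 2 and 5 were thus its highest samples, as in the C1q rows. IRF8 had 0.891 to 2.87 CPM in high yield. It had 2.96 CPM in low-yield 2, 2.58 CPM in low-yield 5 and 0.423 to 1.60 CPM in the remaining low-yield samples.

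Markers of other cell types were also high in low-yield 2 and 5. Both were the 2 highest samples in 9 of 12 pan-leukocyte markers, 5 of 6 fibroblast markers and 3 of 6 endothelial markers. The summed leukocyte level was 16.8 to 31.3 CPM in high yield, 60.0 CPM in low-yield 2, 50.2 CPM in low-yield 5 and 13.5 to 28.4 CPM in the remaining low-yield samples. The summed fibroblast level was 29.1 to 85.0 CPM in high yield, 375 CPM in low-yield 2, 862 CPM in low-yield 5 and 26.4 to 101.5 CPM in the remaining low-yield samples.

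The summed endothelial level was 4.19 to 8.56 CPM in high yield, 22.3 CPM in low-yield 2, 58.0 CPM in low-yield 5 and 2.07 to 16.2 CPM in the remaining low-yield samples. The 3 oocyte markers with a row went the other way, with a summed level of 142 to 226 CPM in high yield, 88.8 CPM in low-yield 2, 76.5 CPM in low-yield 5 and 155 to 187 CPM in the remaining low-yield samples. The part of this cell mixture in the C1q levels was not tested. For this reason the C1q rows are not assigned here to macrophages, although in mammals C1q is made mainly by macrophages and dendritic cells.

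Among 6 T cell markers low-yield 2 and 5 were the 2 highest samples in 2, with summed levels of 1.59 to 8.67 CPM in high yield, 14.2 CPM in low-yield 2, 4.25 CPM in low-yield 5 and 3.86 to 17.9 CPM in the remaining low-yield samples. Among 6 B cell markers they were so in 1, with 0.845 to 11.7 CPM in high yield, 5.12 CPM in low-yield 2, 7.40 CPM in low-yield 5 and 0.526 to 2.42 CPM in the remaining low-yield samples. Among 4 granulocyte markers they were so in 1, with 7.69 to 23.0 CPM in high yield, 39.8 CPM in low-yield 2, 31.4 CPM in low-yield 5 and 11.7 to 61.9 CPM in the remaining low-yield samples. The summed T cell and granulocyte levels thus did not separate low-yield 2 and 5 as the C1q rows did. The summed B cell level was higher in low-yield 2 and 5 than in the remaining low-yield samples, but reached 11.7 CPM in high yield. The 2 granulosa cell markers with a row summed to 0.176 to 2.36 CPM in high yield, 15.6 CPM in low-yield 2, 5.45 CPM in low-yield 5 and 0.433 to 1.67 CPM in the remaining low-yield samples, and the 3 red cell markers to 0.257 to 1.07 CPM in high yield, 3.06 CPM in low-yield 2, 3.39 CPM in low-yield 5 and 0 to 1.03 CPM in the remaining low-yield samples. No row of any of these lists passed an adjusted p of 0.05 in edgeR.

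The other genes of complement had no common direction, with a negative log2 fold change in 9 of 17 tested rows. Of 26 complement genes looked for, 23 had a row and 17 were tested, of which 0 passed an adjusted p of 0.05 in edgeR, and 1 was lower (C7) and 1 higher (C1QBP) in high yield at an unadjusted p under 0.05. Their median log2 fold change was -0.14 and ran from -0.49 to 0.21 with single samples left out. Low-yield 2 and 5 were the 2 highest samples in 2 of 23 rows, near the 9.14% of all rows with at least 1 CPM. The C1q rows are not in this list.

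The rows of 3 partners of C1q had at most 3.71 CPM in any sample, and the C1q rows were themselves low in most samples. C1R (LOC117425903), the protease that C1q activates first, had 0 CPM in every high-yield sample and 3.71 CPM in 1 low-yield sample, and 0 CPM in the other 7. C1S (LOC117425904), the next protease, had 0 to 0.356 CPM in high yield, 0.978 CPM in low-yield 2, 0.782 CPM in low-yield 5 and 0 to 3.32 CPM in the remaining low-yield samples, so its highest level was not in the high C1q ovaries. SERPING1 (LOC131727651), the inhibitor of both proteases, had 1.04 CPM in the high-yield pair 1+5, 0.275 CPM in low-yield 2 and 0.391 CPM in low-yield 5, and 0 CPM in every other sample. These 3 rows are named for their role, and SERPING1 also by the rule on levels.

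Transcripts of proteins that bind C1q were not high in low-yield 2 and 5 as the C1q rows were. C1QBP (LOC117430429), a mitochondrial protein first found as a binder of the globular heads, had 133 ± 14.8 CPM in high-yield ovaries, against 96.8 ± 19.8 CPM in low-yield ovaries (SD, n = 4 and 8), with its lowest levels of 59.6 CPM in low-yield 2 and 81.2 CPM in low-yield 5. Its log2 fold change was 0.49 (SE 0.20; edgeR adjusted p = 0.576), and 0.35 without low-yield 2 and 5. CALR (LOC117417400), the chaperone calreticulin that can bind the collagen-like stalk, had 62.3 ± 14.6 CPM in high-yield ovaries, against 56.7 ± 15.1 CPM in low-yield ovaries (SD, n = 4 and 8). Pearson's r with the mean of the 4 C1q rows over 12 samples was -0.69 for C1QBP and -0.36 for CALR. Without low-yield 2 and 5 it was 0.19 for C1QBP and -0.71 for CALR, given as a description. CD93 (LOC117410787), annotated as the C1q receptor, had 0.165 to 10.2 CPM in high yield, 4.22 CPM in low-yield 2, 2.11 CPM in low-yield 5 and 7.62 to 31.5 CPM in the remaining low-yield samples.

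Later components differed from sample to sample. C7 (LOC131697960), part of the membrane attack complex, was the complement row most like C1q, with 1.65 ± 0.208 CPM in high yield (SD, n = 4), and 21.1 CPM in low-yield 2, 98.9 CPM in low-yield 5 and 0.556 to 3.03 CPM in the remaining low-yield samples. Its log2 fold change was -3.23 (SE 1.41; edgeR adjusted p = 0.580), but -1.40 without low-yield 5, -0.044 without low-yield 2 and 5, and -1.34 in DESeq2. C6 (LOC117963294), its partner in that complex, had 0.671 to 34.6 CPM in high yield, 4.61 CPM in low-yield 2, 42.1 CPM in low-yield 5 and 0.615 to 1.51 CPM in the remaining low-yield samples. C3 (LOC131706606), on which all pathways converge, had 0.597 to 34.9 CPM in high yield, 24.8 CPM in low-yield 2, 1.75 CPM in low-yield 5 and 1.07 to 16.3 CPM in the remaining low-yield samples.

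C5 (LOC131702924), whose cleavage starts the terminal steps, had 2.11 to 15.3 CPM in high yield, 7.85 CPM in low-yield 2, 2.14 CPM in low-yield 5 and 5.16 to 21.2 CPM in the remaining low-yield samples. The lectin pathway protease MASP1 (LOC117423734) had 1.73 to 77.7 CPM in high yield, 23.6 CPM in low-yield 2, 2.19 CPM in low-yield 5 and 28.5 to 71.0 CPM in the remaining low-yield samples. Both genes were lower in low-yield 5, a high C1q ovary, than in any low-yield sample other than 2 and 5. MBL2 (LOC117972400), the counterpart of C1q in the lectin pathway, had 0.0266 to 0.198 CPM in high yield, 0.993 CPM in low-yield 2, 2.87 CPM in low-yield 5 and 0 to 0.349 CPM in the remaining low-yield samples. The alternative pathway factors CFB (LOC117971246) and CFD (LOC131721884) had 0 to 1.26 CPM and 0.375 to 5.57 CPM in high yield, and 0 to 1.32 CPM and 0 to 4.59 CPM in low yield, and the regulator C4BPA (LOC117964446) had 4.05 to 9.64 CPM in high-yield ovaries, against 5.91 to 11.2 CPM in low-yield ovaries.

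The 10 rows most like C1q over all 12 samples were not of the immune lists. Likeness was Pearson's r of log2(CPM + 0.5) with the mean of the 4 C1q rows, over 23988 rows with a mean of at least 1 CPM, and is given as a description. The 10 highest were a hypothetical protein (LOC117416472, r = 0.983), the sulfatase Sulf-2 (LOC117431279, r = 0.981), which trims heparan sulfate, integrin alpha-3 (LOC117433481, r = 0.979), a laminin receptor, neuron navigator 3 (LOC117419969, r = 0.977) and the kinase MAP3K1 (LOC117425788, r = 0.975). After them came F-box/LRR-repeat protein 3 (LOC131696495, r = 0.973), the sphingosine 1-phosphate receptor 1 (LOC117403263, r = 0.969), collagen VI alpha-3 (col6a3, r = 0.968), Wilms tumor protein (LOC117434596, r = 0.968) and the matrix protein SMOC1 (smoc1, r = 0.968).

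These values rest in part on low-yield 2 and 5. Over the other 10 samples r was 0.766 to 0.863 for the 10 rows, against a median of -0.019 over all ranked rows. There, 0 of them were among the 10 most like C1q, and their ranks ran from 14 to 125 of 23988. In all, 306 rows had r above 0.9 over 12 samples. C7 (r = 0.94) and the macrophage marker CD68 (r = 0.91) were among them, while the markers CTSS (r = 0.79) and CSF1R (r = 0.75) were not. Integrin alpha-3 had 0.656 ± 0.120 CPM in high yield (SD, n = 4), and 12.7 CPM in low-yield 2, 19.2 CPM in low-yield 5 and 0.5003 to 3.69 CPM in the remaining low-yield samples. Collagen VI alpha-3 (col6a3) had 4.92 ± 1.12 CPM in high yield (SD, n = 4), and 56.5 CPM in low-yield 2, 146 CPM in low-yield 5 and 2.39 to 8.88 CPM in the remaining low-yield samples. Over the 10 other samples the closest rows were a cytoplasmic phosphatidylinositol transfer protein 1-like row (LOC117424640, r = 0.952) and SDR family member 11 (LOC117430868, r = 0.929).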

How the data were processed

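Per the file headers, the authors deposited whole-number counts and FPKM for 41685 genes in 16 libraries, with the description of each gene. Per the submitters' processing notes, adapters were trimmed with cutadapt 1.9. Per the labels' protocols, poly(A) RNA was captured, fragmented and made into libraries whose second strand was digested. The aligner, the counting program, the lengths behind the FPKM, the build and the annotation were not given in the sources used here. Labels count 8 females a group and do not say why high-yield libraries pair up, so that p-values measure the spread between the samples as summed here.

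Counts of high-yield libraries with Spearman's rho of log2 CPM above 0.98 were summed, over 27653 rows passing edgeR's filterByExpr, and 4 against 8 samples were fitted with edgeR 4.0.16 (quasi-likelihood, filterByExpr, TMM, Benjamini-Hochberg over 30009 rows, two-sided, threshold 0.05). A high-yield CPM is the mean of the pair. Exact permutation tests over 495 splits were two-sided, and correlations used 100000 permutations. On simulated data with 200 changed genes of 30009, this fit recovered 7% of 2-fold and 65% of 8-fold changes with 1 false call.

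Alternatives were 16 separate libraries, the replicate number as a block, DESeq2 1.42.0, median-of-ratios scaling, no filter, limma 3.58.1 on log2(FPKM + 1) for rows whose FPKM averaged at least 1, and leaving out samples. Counts in place of FPKM for the ratios, and the comparison of the 2 loci, were added after seeing the data. Named genes are the 4 C1q rows, the 10 rows most like them with a mean of at least 1 CPM, and per list the row of highest mean FPKM for each symbol, up to 12 for macrophage and complement genes, of which 1 macrophage gene is not reported here. The FPKM order of those rows carries the length fault described above. Rows were matched by symbol or description. The C1q rows and the lists were chosen with earlier results of these data known. Software was matplotlib 3.10.9, scipy 1.17.1, numpy 2.4.6, pandas 2.3.3, Python 3.11.15 and R 4.3.3.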

Additional observations from a re-analysis of the deposited data

Results flagged for a closer look

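Single samples stood far from the rest of their group in 19 of 116 groups of values examined, by Dixon's ratio (0.829 for 4 samples, 0.526 for 8). Chance flags about 1 in 20 groups where values are normally distributed. Many CPM values here were skewed or at 0, so the number of flags cannot be set against that rate. Among the C1q rows, LOC117966684 was at 16.4 CPM in low-yield 5, above 0 to 6.42 CPM in the other low-yield samples. LOC117397119 was at 0.0927 CPM in low-yield 1 and at 0 in the rest. The log2 ratio of summed C to A was 2.52 in low-yield 3, against 0.33 to 1.33 in the other low-yield samples, and rests on few counts.

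Low-yield 5 was the sample far above the other low-yield samples in most cases. It had 146 CPM of col6a3, 1133 CPM of GPNMB (gpnmb), 98.9 CPM of C7 (LOC131697960), 42.1 CPM of C6 (LOC117963294), 4.59 CPM of CFD (LOC131721884), 2.87 CPM of MBL2 (LOC117972400), 625.5 CPM of the collagen COL1A1 (LOC117434956), 5.71 CPM of the leukocyte integrin ITGB2 (LOC117403959) and 0.391 CPM of the B cell receptor CD22 (LOC131709019). Low-yield 2 had 5.35 CPM of HMOX1 (LOC131727469) and 13.5 CPM of the granulosa factor FOXL2 (LOC117416901), and low-yield 8 had 2.72 CPM of MRC1 (LOC131706883).

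In high yield, the pair 1+5 had 1.34 CPM of C7, below 1.72 to 1.78 CPM in the other pairs, and 1.04 CPM of SERPING1 (LOC131727651), which was at 0 in the others. The pair 4+8 had 34.6 CPM of C6 and 5.87 CPM of the T cell kinase ZAP70 (LOC131721850), above 0.671 to 0.967 CPM and 0.165 to 0.970 CPM in the other pairs.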

How the results depend on the processing

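The number of rows past an adjusted p of 0.05 was 0 in edgeR's fit of summed pairs, 16 with the 16 libraries as separate samples and 123 with DESeq2. The log2 fold changes of the 4 C1q rows were negative under every alternative that covered the row, from -3.45 to -0.24, and were nearest to 0 without low-yield 2 and 5. With each sample left out in turn they ran from -3.45 to -1.54. The limma fit did not cover LOC117397236, which fell below its FPKM limit. Since this contrast chose the rows, their shared sign is no support for a difference. LOC117966684 turned positive without low-yield 2 and 5 (0.42) and with the replicate block (0.077), and the cause was not tested. The difference in share of LOC131708117 (high minus low, -1.77 percentage points) ran from -4.41 to 2.10 with each sample left out, and that of log2 C over A (0.31) from -0.14 to 0.56. Both turned without the high-yield pair 2+6 (2.10 and -0.14). The difference between loci (4.88 percentage points) was 6.12 without low-yield 5.

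Same-numbered samples of the groups do not share an animal, and the correlation of their deviations ran from -0.22 to 0.41, so the numbers do not pair them. The replicate block called 0 rows and gave log2 fold changes of -1.44, -1.57, -1.04 and -1.78 for A, B, LOC131708114 and LOC117397236. Low counts limit the C1q rows most: single libraries outside low-yield 2 and 5 held as few as 3 counts of a row, so copies and ratios in those samples carry wide counting error.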
